A study of Mus musculus with 9 samples.

Results

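The genes described here are the MHC class II transactivator Ciita, the invariant chain gene Cd74, the classical class II chain genes H2-Aa, H2-Ab1 and H2-Eb1, and the peptide-loading genes H2-DMa and H2-DMb1. They were taken by gene name from the table of read counts, where each name matched 1 of the 54532 genes listed, and all 7 passed the filter on low counts. The study sequenced mRNA from cultured adipose-derived stem cells (ASCs) of C57BL/6 mice, with subcutaneous fat as the source of the group Sub-ASC, abdominal fat of Ab-ASC and perivascular fat of PVASC. Each group had 3 libraries, 9 in all. The cells were freed from minced fat with collagenase and dispase, grown in stem cell medium with leukemia inhibitory factor and FGF, and harvested after several passages, and no treatment distinguished the groups. Nothing in the labels or methods states the age or sex of the mice, whether mice were pooled, or whether the libraries of a group came from separate animals, so the p-values measure the spread between these libraries, which may be technical.

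MHC class II molecules are pairs of an alpha and a beta chain that show peptides from taken-up material to CD4 T cells, mainly on dendritic cells, B cells and macrophages. Other cells, stromal and endothelial cells among them, can be made to transcribe class II genes by interferon-gamma, which acts through IRF1 among other factors on the gene of CIITA. CIITA does not bind DNA itself but is recruited by the factors RFX, CREB and NF-Y, which sit on conserved X and Y boxes in front of class II chain genes, Cd74 and the H2-DM genes. The invariant chain fills the groove of the new molecule, cathepsins and other lysosomal enzymes trim it, and H2-DM exchanges the remaining fragment for a peptide.

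Fixed letters from each of these boxes were looked for in the promoter sequences at hand, and the members differed in these letters. Windows from 250 bases before to 50 bases after the start of the RefSeq transcript (GRCm38.p6) were at hand for H2-Aa, H2-Eb1, H2-DMa and H2-DMb1 and not for Ciita, Cd74 or H2-Ab1. The letters ACNGATG, a core of the X box, and GATTGG, which holds the reverse complement of CCAAT and marks the Y box, were searched on both strands. They were chosen after these promoters had been seen, and they do not overlap each other in the stretches printed. H2-Eb1 and H2-Aa are shown because both genes were far lower outside Sub-ASCs, one with both sets of letters and one with only the second, in capitals:
H2-Eb1, chr17:34305767-34305818, plus strand: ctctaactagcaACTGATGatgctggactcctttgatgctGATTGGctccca
H2-Aa, chr17:34287861-34287912, minus strand: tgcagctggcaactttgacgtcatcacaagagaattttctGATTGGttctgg
In H2-Eb1 the X letters began at -88 and the Y letters at -60 from the start, 28 bases apart. In H2-Aa the Y letters began at -49, with no X letters 20 to 40 bases before them. The window of H2-DMb1 held the pair at -91 and -62, although the RefSeq start of this gene lies inside the longer span listed for it in the count table. Neither of the windows of H2-DMa held the pair. Among all 32851 windows, 9.85% held ACNGATG, 16.1% held GATTGG and 0.067%, or 22 windows, held the X letters 20 to 40 bases before the Y letters on either strand. Of the 8 class II genes with a window, 4 held the pair, and they were H2-Eb1, H2-DMb1, H2-DMb2 and H2-Eb2. These matches describe the letters only. Other forms of the X box were not searched, so a window without ACNGATG, that of H2-Aa among them, may still hold an X box.

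Library totals ranged from 20524173 to 29881036 reads, so that 3 reads in a library, taken here as the smallest measurable count, correspond to 0.0916 to 0.161 CPM (reads scaled to library size by edgeR's TMM method). Such a limit covers counting error only. Of the 9 stromal markers on a fixed list, every gene had at least 10 reads in every library, among them Col1a1, Col1a2 and Pdgfrb, while Ly6a (Sca-1) ranged from 443 to 479 reads in Ab-ASCs against 48821 to 54807 in Sub-ASCs. Their summed level was 14065 to 14763 CPM in Sub-ASCs, 11050.1 to 11607 in Ab-ASCs and 7126 to 7455 in PVASCs, and against each group 6 of the 9 were called higher in Sub-ASCs and 3 lower. With a log2 fold change of at least 1 also required, 4 were called against Ab-ASCs and 6 against PVASCs. Pdgfra, a receptor marking stromal cells, had 61939 to 71396 reads in Sub-ASCs, 8222 to 10060 in Ab-ASCs and 9871 to 10871 in PVASCs, while Thy1 and Eng were higher in PVASCs than in Sub-ASCs, with log2 differences of 1.41 and 1.60. The part of these differences in the class II levels was not tested. The RNA came from whole cultures, and fewer cells of a type and less RNA per cell cannot be told apart.

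All 7 genes were higher in Sub-ASCs than in both other groups. Against PVASCs, 7 of 7 were called higher in Sub-ASCs (quasi-likelihood F-test of edgeR, p-values adjusted by Benjamini-Hochberg over the 16526 genes tested), where 35.7% of all genes were called in that direction. Against Ab-ASCs, 7 of 7 were again called higher in Sub-ASCs, beside 38.3% of all genes. With a log2 fold change of at least 1 also required, the members stayed at 7 in both comparisons, while the shares of all genes were 16.6% against PVASCs and 21.3% against Ab-ASCs. Every Sub-ASC library lay above each of the other 6 libraries for 7 of 7 members, a pattern found in 30.7% of the genes tested. The median log2 difference of the 7 genes was -4.72 for PVASC minus Sub-ASC and -4.17 for Ab-ASC minus Sub-ASC, where the median over all genes tested was -0.01 and -0.03. Both comparisons use the same Sub-ASC libraries.

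**Figure D1:**
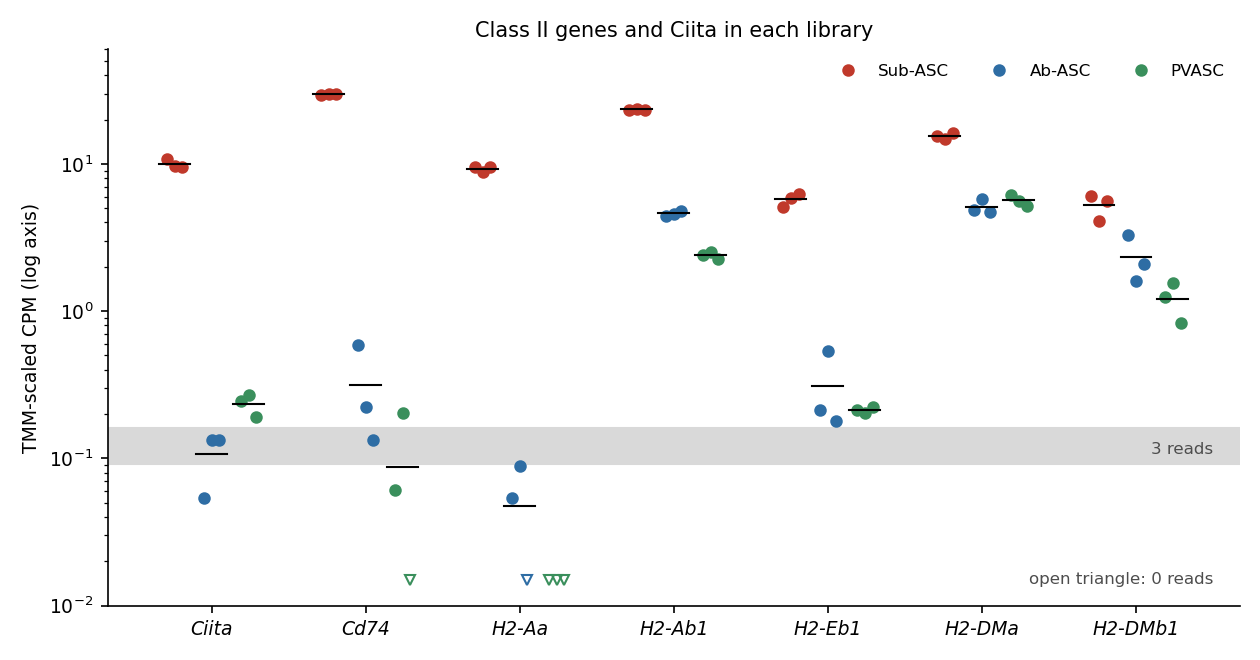
TMM-scaled CPM (log axis) of Ciita, Cd74 and the 5 class II chain and H2-DM genes in each of the 9 libraries, with 1 point per library, a black line at the group mean, open triangles for libraries with 0 reads and a grey band for the level of 3 reads. Sub-ASC libraries lie above the others for every gene, and H2-Ab1, H2-DMa and H2-DMb1 stay above the grey band in every library of the other groups.

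Ciita encodes CIITA, known as the main regulator of class II transcription. The table places it on chromosome 16 at 10480059 to 10528418 on the plus strand. It had 251, 248 and 250 reads in the Sub-ASC libraries, 1, 3 and 3 in the Ab-ASC libraries and 8, 8 and 6 in the PVASC libraries. The 3 groups did not overlap in CPM, with means of 10.01 ± 0.66 (SD, n = 3) in Sub-ASCs, 0.107 ± 0.046 in Ab-ASCs and 0.235 ± 0.041 in PVASCs, and Ab-ASCs sat at or under 3 reads. By edgeR the log2 difference from Sub-ASCs was -6.45 with a standard error (SE) of 0.23 for Ab-ASCs (adjusted p = 7.2e-11) and -5.38 with an SE of 0.18 for PVASCs (adjusted p = 4.57e-11). Dexi overlaps Ciita on the opposite strand, and the strand setting of the counting is not given in the sources used here, so a share of reads in the overlap may have been lost or misplaced.

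Cd74 encodes the invariant chain, the chaperone of new class II molecules. Its reads were 683, 762 and 782 in Sub-ASCs, 11, 5 and 3 in Ab-ASCs and 2, 6 and 0 in PVASCs. It was the member with the most reads in Sub-ASCs and fell to a few reads elsewhere, where Ab-ASC and PVASC libraries overlapped. In CPM the means were 29.7 ± 0.33 in Sub-ASCs, 0.315 ± 0.24 in Ab-ASCs and 0.0881 ± 0.10 in PVASCs. The log2 difference from Sub-ASCs was -6.61 (SE 0.27) for Ab-ASCs and -8.36 (SE 0.30) for PVASCs, with adjusted p of 2.65e-10 and 7.9e-11 by edgeR. At so few reads single libraries set the size, and the values were -7.34 without Ab-ASC replicate 1 and -9.67 without PVASC replicate 2. As ratios of summed reads per library size, Sub-ASCs were 99.3 times Ab-ASCs with a 95% counting interval of 63.5 to 165, and 348 times PVASCs with an interval of 176 to 807.

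The chain genes lie side by side on chromosome 17 at 34263209 to 34269418 (H2-Ab1, plus strand), 34282744 to 34287827 (H2-Aa, minus strand) and 34305877 to 34316199 (H2-Eb1, plus strand). H2-Aa and H2-Ab1 encode the alpha and beta chains of one molecule, the mouse I-A molecule. H2-Aa had 221, 225 and 250 reads in Sub-ASCs, 1, 2 and 0 in Ab-ASCs and 0 in each PVASC library. Against 3 reads per library, Sub-ASCs were at least 96.5-fold higher than PVASCs. Over Ab-ASCs, which had 3 reads in all, the ratio was 197 with a counting interval of 67.0 to 956. Without Ab-ASC replicate 2, which held 2 of these reads, the fitted log2 difference moved from -7.48 to -8.31. The adjusted p by edgeR was 5.24e-09 against Ab-ASCs and 1.77e-09 against PVASCs.

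H2-Ab1, the partner chain, kept a level that could be measured in every library. It had 544, 600 and 611 reads in Sub-ASCs, 83, 103 and 108 in Ab-ASCs and 79, 74 and 71 in PVASCs. The 3 groups did not overlap in CPM and were ordered Sub-ASC, Ab-ASC and PVASC, at 23.4 ± 0.15, 4.61 ± 0.18 and 2.39 ± 0.13. The log2 difference from Sub-ASCs was -2.34 (SE 0.09, adjusted p = 9.99e-11 by edgeR) for Ab-ASCs and -3.29 (SE 0.09, adjusted p = 5.98e-12) for PVASCs. Thus Ab-ASCs and PVASCs held 294 and 224 reads of the beta chain gene beside 3 and 0 reads of the alpha chain gene, whereas Sub-ASCs held 1755 beside 696. In Sub-ASCs the ratio of H2-Aa to H2-Ab1, in FPKM (reads scaled to gene length and library total), was 0.347 ± 0.017 and ranged from 0.328 to 0.357. No ratio was taken in the other groups, where H2-Aa was under 10 reads.

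H2-Eb1 encodes the beta chain of the I-E molecule, whose alpha chain gene is defective in C57BL/6 mice. Its reads were 118, 149 and 165 in Sub-ASCs, 4, 12 and 4 in Ab-ASCs and 7, 6 and 7 in PVASCs. Sub-ASCs stood apart and the other groups overlapped, with Ab-ASC replicate 2 above the PVASC libraries and the other 2 Ab-ASC libraries near them. The log2 difference from Sub-ASCs by edgeR was -4.17 (SE 0.27, adjusted p = 2.44e-08) for Ab-ASCs and -4.72 (SE 0.26, adjusted p = 6.08e-09) for PVASCs, and without Ab-ASC replicate 2 the former was -4.84. The alpha chain pseudogene H2-Ea-ps, which is not a member, had 126, 191 and 137 reads in Sub-ASCs and 0 in the other 6 libraries, which makes Sub-ASCs at least 42.4-fold higher over Ab-ASCs and at least 62.8-fold higher over PVASCs.

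H2-DMa and H2-DMb1 encode the 2 chains of H2-DM, which loads peptides in the endosome. They lie on chromosome 17 at 34135182 to 34139101 and 34153072 to 34160230, both on the plus strand. H2-DMa had 359, 373 and 427 reads in Sub-ASCs, 90, 130 and 105 in Ab-ASCs and 201, 166 and 164 in PVASCs, with CPM of 15.4 ± 0.81, 5.09 ± 0.59 and 5.66 ± 0.46. Ab-ASC and PVASC libraries overlapped, and both groups lay under every Sub-ASC library. H2-DMb1 had 141, 104 and 146 reads in Sub-ASCs, 61, 36 and 47 in Ab-ASCs and 41, 46 and 26 in PVASCs, and here the 3 groups did not overlap in CPM. For H2-DMa the log2 difference from Sub-ASCs by edgeR was -1.60 (SE 0.11, adjusted p = 4.12e-08) for Ab-ASCs and -1.45 (SE 0.10, adjusted p = 6.27e-08) for PVASCs. For H2-DMb1 it was -1.19 (SE 0.26, adjusted p = 0.00114) for Ab-ASCs and -2.11 (SE 0.27, adjusted p = 1.53e-05) for PVASCs. H2-DMb1 has a near-identical neighbour, H2-DMb2, and reads that fit both may have been dropped or split by the counting. H2-DMb2 itself had 35, 51 and 49 reads in Sub-ASCs, 2, 0 and 3 in Ab-ASCs and 1, 1 and 0 in PVASCs.

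**Figure D2:**
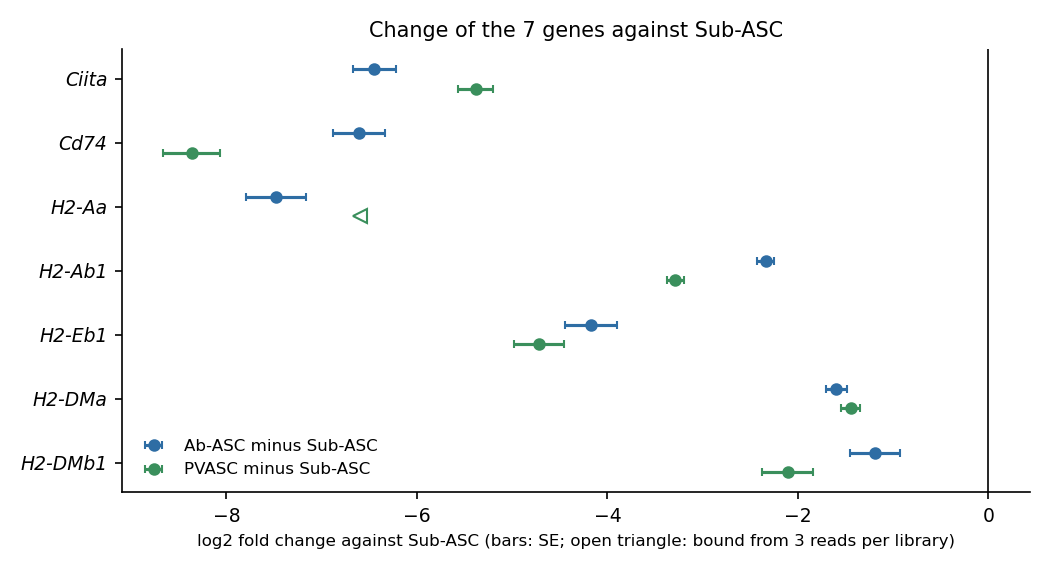
log2 fold change of each of the 7 genes in Ab-ASCs (blue) and PVASCs (green) against Sub-ASCs, with bars of 1 SE from edgeR and an open triangle for the bound of H2-Aa in PVASCs, where it had 0 reads. The H2-DM genes lie between -2.11 and -1.19, H2-Ab1 between -3.29 and -2.34, and the other 4 genes lower.

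Levels of different genes were compared per length, as FPKM. In Sub-ASCs the order was Cd74 (20.6 ± 0.23), H2-Ab1 (14 ± 0.12), H2-DMa (9.21 ± 0.46), H2-Aa (4.85 ± 0.19), H2-Eb1 (4.74 ± 0.51), H2-DMb1 (3.45 ± 0.67) and Ciita (1.03 ± 0.069), each with n = 3. The ranges of H2-Aa and H2-Eb1 overlapped, and those of the other neighbours in this order did not. In Ab-ASCs H2-DMa (2.90 ± 0.39) and H2-Ab1 (2.63 ± 0.15) came first with overlapping ranges, before H2-DMb1 (1.45 ± 0.50), H2-Eb1 (0.245 ± 0.16) and Cd74 (0.207 ± 0.15), of which the last pair overlapped. In PVASCs the order was H2-DMa (3.77 ± 0.31), H2-Ab1 (1.60 ± 0.080), H2-DMb1 (0.892 ± 0.27), H2-Eb1 (0.197 ± 0.0095), Cd74 (0.0681 ± 0.080) and Ciita (0.0270 ± 0.0046), with no overlap from H2-DMa down to Cd74 and with H2-Aa at 0 reads. The invariant chain thus went from the highest level of the 7 in Sub-ASCs to near the lowest in PVASCs.

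The 7 levels summed to 57.9 ± 1.1 FPKM in Sub-ASCs, 7.48 ± 0.39 in Ab-ASCs and 6.55 ± 0.63 in PVASCs. Cd74 made up 35.6% ± 0.87 of the sum in Sub-ASCs, 2.72% ± 1.9 in Ab-ASCs and 0.985% ± 1.2 in PVASCs. H2-DMa made up 15.9% ± 0.51, 38.8% ± 4.6 and 57.7% ± 3.2 in the same order. H2-Ab1 held 24.2% ± 0.64, 35.4% ± 3.7 and 24.5% ± 1.3. The make-up of the class II transcripts therefore differed between the groups, with the H2-DM genes and H2-Ab1 forming most of what remained outside Sub-ASCs.

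**Figure D3:**
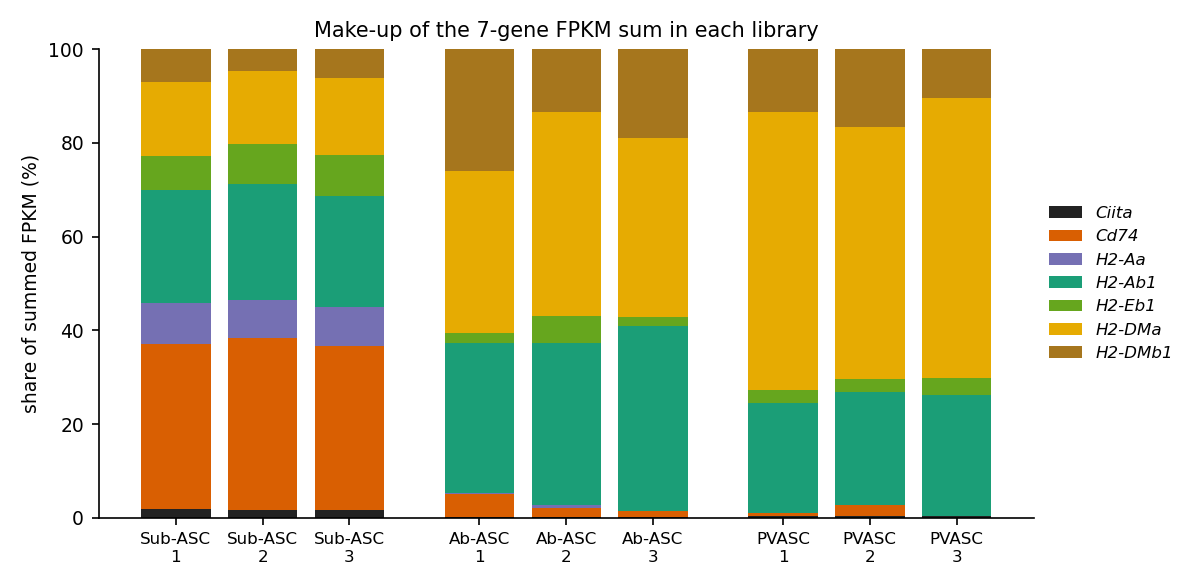
Share (%) of each gene in the summed FPKM of the 7 genes, with 1 stacked bar per library and 3 libraries per group. Cd74 (orange) takes 35.0% to 36.6% in the Sub-ASC libraries and at most 4.92% in the others, where H2-DMa (yellow) takes 34.6% or more.

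Ratios between members were tested where both genes had at least 10 reads in every library, which left H2-Ab1, H2-DMa and H2-DMb1 and 9 comparisons. The FPKM ratio of H2-Ab1 to H2-DMa was 1.52 ± 0.089 in Sub-ASCs, 0.917 ± 0.12 in Ab-ASCs and 0.425 ± 0.028 in PVASCs, with no overlap between any 2 groups. An exact two-sided permutation test over libraries gave p = 0.1 for each pair of groups, the smallest that 3 against 3 libraries allow, and 0.15 after adjustment over the 9 comparisons. The ratio of H2-Ab1 to H2-DMb1 was 4.18 ± 0.93 in Sub-ASCs, 1.97 ± 0.69 in Ab-ASCs and 1.89 ± 0.52 in PVASCs, and only the latter groups overlapped. That of H2-DMa to H2-DMb1 was 2.73 ± 0.48, 2.21 ± 0.98 and 4.47 ± 1.2, with Ab-ASCs overlapping both other groups and no overlap between PVASCs and Sub-ASCs. This test could not reach 0.05 with 3 against 3 libraries for any of the ratios.

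PVASCs and Ab-ASCs were much closer to each other. In this comparison 2 of the 7 genes were called, in a fit where 56.9% of all genes were called in either direction. H2-Ab1 was lower in PVASCs, with a log2 difference of -0.95 (SE 0.11, adjusted p = 1.19e-05 by edgeR). H2-DMb1 was also lower there, with a difference of -0.92 (SE 0.31, adjusted p = 0.0225), but its adjusted p rose to 0.0721 without Ab-ASC replicate 1, to 0.0855 without PVASC replicate 3 and to 0.0517 with Sub-ASCs left out of the fit. For H2-DMa the difference was 0.15 (SE 0.12, adjusted p = 0.295). Ciita did not overlap between the 2 groups but was not called, with a ratio of PVASC to Ab-ASC reads of 2.13, a counting interval of 0.880 to 5.91 and an adjusted p of 0.101 by edgeR. Cd74 was not called, with a log2 difference of -1.75 (SE 0.74). Its ratio of Ab-ASC to PVASC reads was 3.50, with a counting interval of 1.46 to 9.24. The adjusted p of Cd74 was 0.0621 by edgeR and 0.00835 by DESeq2, and ranged from 0.00639 to 0.274 over the alternatives. By edgeR it fell to 0.0144 without PVASC replicate 2 and to 0.0317 without Ab-ASC replicate 3. H2-Aa was at or under 3 reads in both groups, and no fold is given.

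The members on chromosome 17 lie among other immune genes, and the table lists 34 genes from H2-K1 to Btnl2, a span of 373.5 kb. Of these, 19 were tested and 13 were called higher in Sub-ASCs than in both other groups, the 5 members among them, where 28.7% of all genes tested were called so. The 8 others were H2-K1, a class I heavy chain gene, H2-DMb2, H2-Ea-ps, Gm15821 and the peptide supply genes Psmb9, Tap1, Psmb8 and Tap2. Between H2-K1 and H2-DMa, the genes Ring1, Slc39a7, Rxrb, Col11a2 and Brd2 had log2 differences from Sub-ASCs between -0.50 and 0.51, and the pseudogene Gm20493 had -3.01 in Ab-ASCs and -0.33 in PVASCs. H2-Oa and H2-Ob, the chains of an inhibitor of H2-DM found in B cells, had at most 4 reads in any library, and H2-Eb2 had 0.

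**Figure D4:**
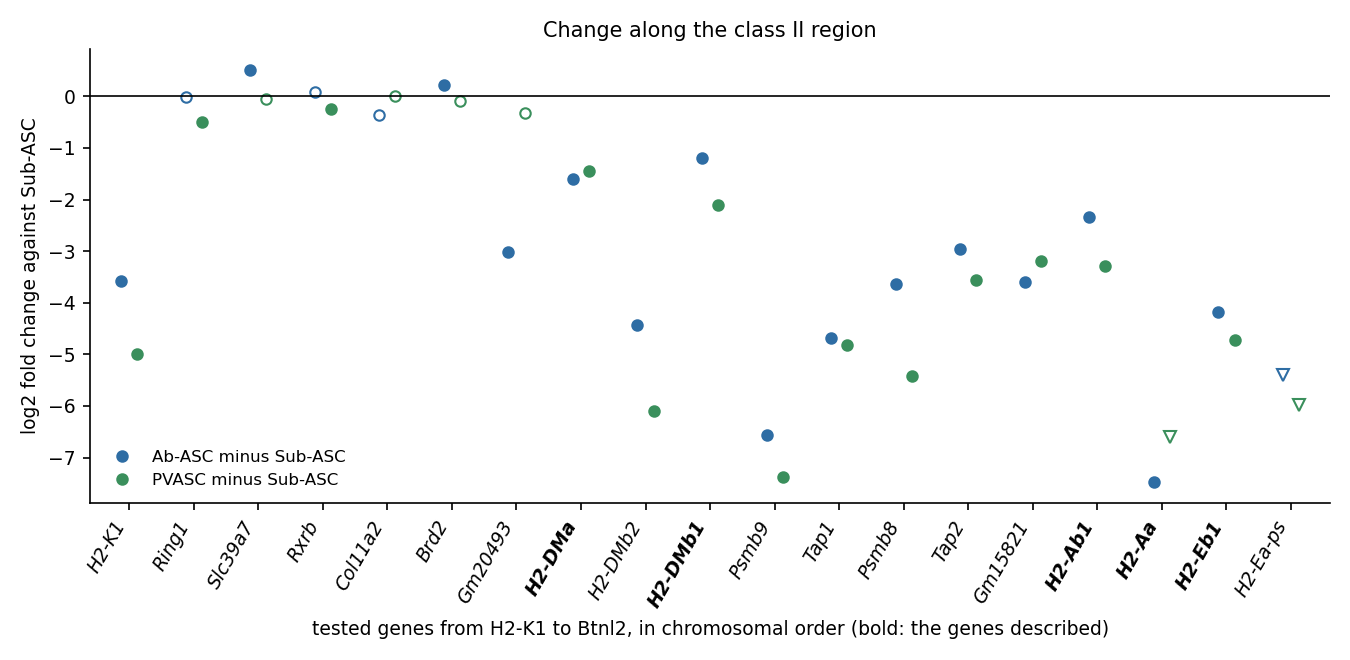
log2 fold change of the 19 tested genes from H2-K1 to Btnl2 in Ab-ASCs (blue) and PVASCs (green) against Sub-ASCs, in chromosomal order and not to scale of distance. Filled circles passed the adjusted threshold of 0.05, open circles did not, and open triangles are bounds for groups with 0 reads. From H2-DMa to H2-Ea-ps every point lies below 0, while the 5 genes from Ring1 to Brd2 lie between -0.50 and 0.51.

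The neighbours of Ciita and Cd74 were measured in the same way, with 3 tested genes on each side. Around Ciita, Socs1 had log2 differences from Sub-ASCs of -3.64 in Ab-ASCs and -3.42 in PVASCs, and the other 5 genes lay between -1.15 and 1.03. Around Cd74, Arsi had -3.39 and -5.93, Synpo had -2.15 and 1.15, and the other 4 lay between -1.59 and 1.16. None of these 12 genes reached the differences of Ciita and Cd74 in Ab-ASCs, although Arsi in PVASCs lay beyond Ciita there.

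The genes that lead from interferon-gamma to Ciita were also mostly higher in Sub-ASCs. Of 10 genes listed, 9 were called higher in Sub-ASCs and 1 lower against Ab-ASCs, and the same numbers held against PVASCs, with medians of -1.68 and -1.82. Irf1, a transcription factor that acts on Ciita, had 7440 to 8692 reads in Sub-ASCs, 443 to 504 in Ab-ASCs and 442 to 501 in PVASCs. Its log2 difference from Sub-ASCs was -3.84 (SE 0.08) in Ab-ASCs and -4.38 (SE 0.08) in PVASCs. Socs1, a feedback inhibitor of this pathway, had 1651 to 2106 reads in Sub-ASCs, 112 to 136 in Ab-ASCs and 202 to 222 in PVASCs. For both genes, no Sub-ASC library overlapped with those of the other groups. Of the receptor chain genes, Ifngr1 was lower outside Sub-ASCs (-0.93 in Ab-ASCs and -1.26 in PVASCs) and Ifngr2 was higher (0.88 and 0.71).

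Ifng, the gene of interferon-gamma itself, had 64, 49 and 56 reads in the Sub-ASC libraries and 0 in each Ab-ASC library, at least 15.9-fold higher in Sub-ASCs. In PVASCs it had 0, 17 and 0 reads, so that replicate 2 held every read. The difference between Sub-ASCs and PVASCs was called by edgeR (adjusted p = 0.00145) and not by DESeq2 (adjusted p = 0.21). Without PVASC replicate 2, Sub-ASCs were at least 24.3-fold higher (adjusted p = 1.59e-05 by edgeR). In PVASC replicate 2 Ciita had 8 reads and Cd74 had 6, beside 8 and 2 in replicate 1 and 6 and 0 in replicate 3.

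The factors that bind class II promoters moved little by comparison. Of 7 genes, 3 were called higher in Sub-ASCs and 3 lower against Ab-ASCs, and 2 higher and 1 lower against PVASCs, with medians of 0.04 and -0.08. With a log2 fold change of at least 1 also required, 1 gene was left against Ab-ASCs and 0 against PVASCs. Rfx5, a subunit of the X box factor, was higher in Sub-ASCs in both comparisons, with log2 differences of -1.02 (SE 0.09) in Ab-ASCs and -0.90 (SE 0.08) in PVASCs. It had 417 to 450 reads in Sub-ASCs, 158 to 199 in Ab-ASCs and 270 to 311 in PVASCs. Nfyc, a subunit of the Y box factor NF-Y, was lower in Sub-ASCs, with differences of 0.79 and 0.37. Every gene of this list had at least 10 reads in every library.

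The list of class II processing and turnover holds enzymes that trim antigen and the invariant chain and 2 ligases, March1 and March8, and 8 of its 9 genes were called higher in Sub-ASCs against both groups, with medians of -1.42 in Ab-ASCs and -1.46 in PVASCs. Lgmn, an asparagine endopeptidase of the lysosome, showed the largest difference against PVASCs at -2.99 (SE 0.07), and it was -3.26 (SE 0.08) in Ab-ASCs. Ctss, the cathepsin known for the last steps of invariant chain trimming, had 2586 to 3093 reads in Sub-ASCs and 593 to 755 in the other libraries. The exception was Ifi30, a thiol reductase of the endosome, with 373 to 498 reads in Sub-ASCs, 910 to 1012 in Ab-ASCs and 732 to 743 in PVASCs. March1, a ligase that marks class II molecules for removal from the surface, was higher in Sub-ASCs, with 49 to 68 reads against 3 to 11 and 11 to 26.

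Among 7 genes for co-stimulatory and related surface molecules, 5 were called higher in Sub-ASCs and 1 lower against Ab-ASCs, and 6 higher and 1 lower against PVASCs. Cd86 had 35, 47 and 42 reads in Sub-ASCs, 6, 12 and 10 in Ab-ASCs and 1 in each PVASC library. Its partner Cd80, which binds the same receptors on T cells, differed in the other direction, with log2 differences of 0.47 in Ab-ASCs and 0.45 in PVASCs. Cd274, which encodes PD-L1, was lower outside Sub-ASCs by -4.19 (SE 0.14) in Ab-ASCs and -5.32 (SE 0.15) in PVASCs. Pdcd1lg2, which encodes PD-L2, had 62 reads over the Sub-ASC libraries and 0 in all others.

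Genes of class I presentation were higher in Sub-ASCs, with 9 of 9 called against each group and medians of -3.80 in Ab-ASCs and -4.99 in PVASCs. Between PVASCs and Ab-ASCs, 6 of the 9 were called, all lower in PVASCs. Of the 16526 genes tested, 5308 were called lower in PVASCs, and 56.9% were called in either direction. With a log2 fold change of at least 1 also required, 3 of the class I genes were called. The difference between the class I and class II lists was not tested. Nlrc5, the transactivator of class I genes and a relative of CIITA, had 3257 to 3875 reads in Sub-ASCs, 67 to 81 in Ab-ASCs and 124 to 139 in PVASCs. Its log2 differences were -5.37 (SE 0.09) and -5.09 (SE 0.09), beside -6.45 and -5.38 for Ciita. Psmb9, an immunoproteasome subunit, differed by -6.56 (SE 0.12) and -7.37 (SE 0.13). Every class I gene kept at least 10 reads in every library, but each had 3032 or more reads in every Sub-ASC library. H2-Aa had 221 to 250 reads there, so the reads left in the other groups cannot be compared directly.

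**Figure D5:**
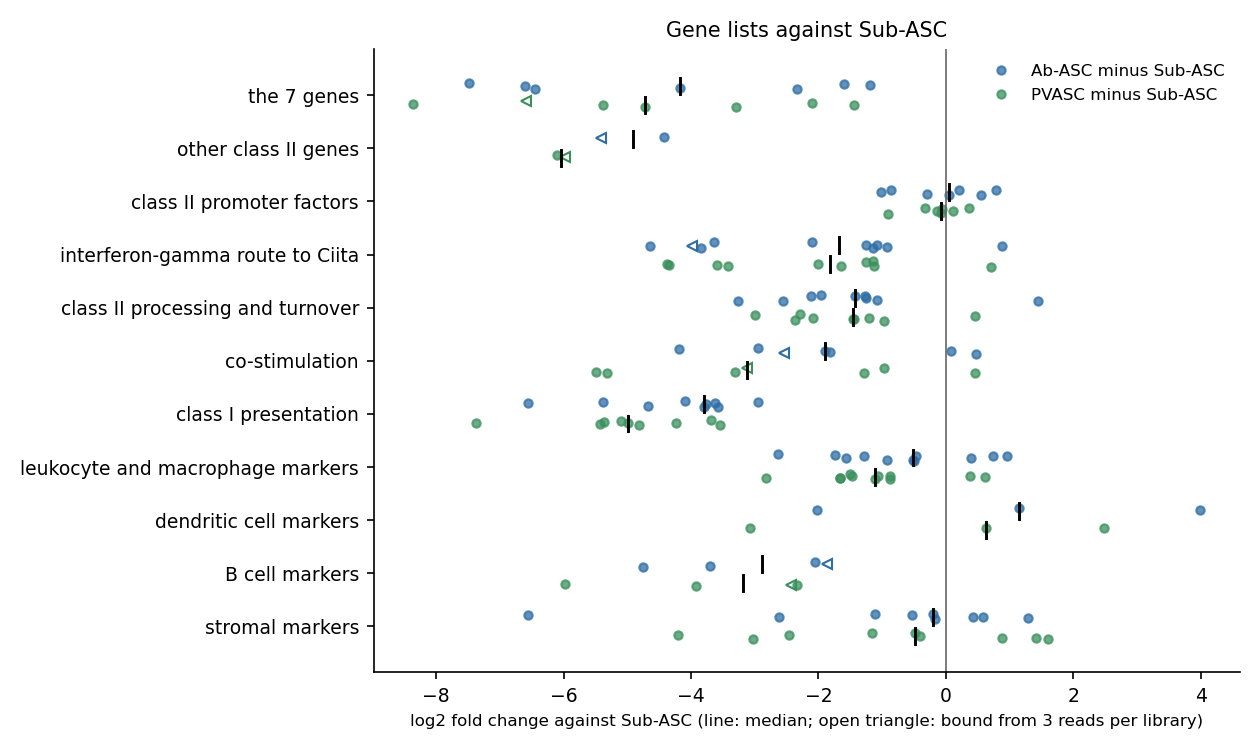
log2 fold change against Sub-ASCs of the tested genes of each list, for Ab-ASCs (blue) and PVASCs (green), with 1 point per gene, a black line at the median and open triangles for bounds where a group had 0 reads. The class I genes all lie between -7.37 and -2.95, the promoter factors lie on both sides of 0, and the leukocyte markers range from -2.83 to 0.96.

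Markers of the cells that carry class II constitutively were read beside these results. The 11 leukocyte and macrophage markers had at least 10 reads in every library, and their summed level was 306 to 307 CPM in Sub-ASCs, 334 to 426 in Ab-ASCs and 318 to 328 in PVASCs. Lyz2 made up 51.9% to 77.2% of these sums, and without it they were 142 to 148, 96.3 to 109 and 72.5 to 77.2 CPM. Of the 11 genes, 8 were called higher in Sub-ASCs and 2 lower against Ab-ASCs, and 9 higher and 2 lower against PVASCs, with medians of -0.51 and -1.11. With a log2 fold change of at least 1 also required, the calls were 4 against Ab-ASCs and 7 against PVASCs. Ptprc, which encodes CD45, had 204 to 246 reads in Sub-ASCs, 21 to 35 in Ab-ASCs and 72 to 96 in PVASCs. Lyz2 and Csf1r went the other way.

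The 5 dendritic cell markers summed to 10.4 to 11.4 CPM in Sub-ASCs, 14.4 to 16.6 in Ab-ASCs and 9.85 to 11.04 in PVASCs. Of the 3 that were tested, 1 was called higher in Sub-ASCs and 2 lower, against each group. The higher one was Itgax, which encodes CD11c, with 106 to 143 reads in Sub-ASCs, 15 to 35 in Ab-ASCs and 11 to 24 in PVASCs. Zbtb46, a transcription factor of classical dendritic cells, had 144 to 155 reads in Sub-ASCs, 251 to 310 in Ab-ASCs and 276 to 307 in PVASCs. Xcr1, a chemokine receptor of dendritic cells, had 0 to 3, 16 to 24 and 8 to 12 reads in the same order. Cd209a had 0 reads in all 9 libraries and Flt3 had at most 3. The 5 B cell markers summed to 3.09 to 3.85 CPM in Sub-ASCs, 0.107 to 0.489 in Ab-ASCs and 0.159 to 0.237 in PVASCs. Of 4 tested B cell markers, 4 were called higher in Sub-ASCs against each group. Ms4a1, which encodes CD20, had 19, 22 and 32 reads in Sub-ASCs and at most 2 elsewhere, and Cd79b had 12 to 14 reads in Sub-ASCs and 0 elsewhere.

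Markers of endothelium and mesothelium differed between the groups as well. The 3 endothelial markers, Pecam1, Cdh5 and Kdr, summed to 103 to 110.2 CPM in Sub-ASCs, 41.1 to 42.3 in Ab-ASCs and 421 to 424 in PVASCs, and all 3 were called in each comparison, in the order PVASC, Sub-ASC and Ab-ASC. The 4 mesothelial markers, Msln, Upk3b, Wt1 and Lrrn4, summed to 0.457 to 1.06 CPM in Sub-ASCs, 73.2 to 78.3 in Ab-ASCs and 15.3 to 15.8 in PVASCs. All 4 were called lower in Sub-ASCs than in both other groups, and lower in PVASCs than in Ab-ASCs. Lrrn4 had 0 reads in each Sub-ASC library and Msln had 0, 1 and 0. The part of leukocytes, B cells, dendritic cells, endothelium and mesothelium in the class II levels was not tested.

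Last, the genes whose profiles lay nearest to those of Ciita and Cd74 were found over the 9 libraries, by the root-mean-square distance of log2 CPM centred on each gene's own mean, with a prior count of 2 in the log. Both genes had at most 11 reads in a library outside Sub-ASCs, where this prior count shapes their profiles and the distances. H2-Aa, with 3 and 0 reads over Ab-ASCs and PVASCs, has a profile set there by the prior count, and no genes are named for it. Nearest to Ciita were Podn (distance 0.23), Ifitm1 (0.26) and Cpxm1 (0.27). Nearest to Cd74 were Slco2b1 (0.47), Fmo1 (0.53) and Calhm6 (0.54). Pearson's r of these 6 genes with their member ranged from 0.988 to 0.999. The points fall into the 3 groups, so r describes the groups rather than 9 separate levels. Podn, for example, had 3056 to 3360 reads in Sub-ASCs, 22 to 45 in Ab-ASCs and 97 to 107 in PVASCs, the same order as Ciita.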

How the data were processed

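Of mRNA from cultured ASCs 9 libraries were sequenced, 3 per group, and the groups were taken from the labels. The authors deposited raw read counts per gene with gene positions and lengths, and all per-sample columns were used. The submitters' processing notes name CASAVA 1.8, Bowtie 0.12.2 and featureCounts 1.5.0-p3 and the builds mm8 and mm10, with no roles. For 98.1% of the genes GENCODE M21 (GRCm38) gives the same start and end, so positions are read as GRCm38. Of the 7 members, 2 match in both. The others have ends 0 to 475 bases apart from GENCODE M21 and starts 0 to 10 bases apart, except that H2-Ab1 and H2-DMa start 5520 and 15641 bases later in the table. The strand setting is not given in the sources used here.

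The members and gene lists were chosen with earlier results of these data known. Counts were tested with edgeR 4.0.16 in R 4.3.3 (filterByExpr, TMM, quasi-likelihood F-test, all 9 libraries in 1 fit, group as the only term), with Benjamini-Hochberg adjustment over 16526 genes and a threshold of 0.05. SEs are the log2 fold change divided by the root of F. The methods state Student's and variance tests in general, and none for these counts in particular. FPKM used the listed length and library total. A fold against a group with 0 reads was taken against 3 reads per library and is a lower bound, and counting intervals at 95% are exact conditional binomial intervals on summed reads. They cover counting error only. Genes named beyond the members belong to the lists, to the stretch from H2-K1 to Btnl2, to the 3 tested neighbours on each side of Ciita and Cd74, or to the 3 nearest profiles. Of a list, genes with the largest differences and markers near 0 were preferred, and further genes of the lists are given for their role. One gene of the lists is counted but not reported by name here. Gene names that a spreadsheet had turned into dates were restored from the Ensembl identifier, which gave March1. The edgeR procedure was run on simulated counts with changes far smaller than those of Ciita, Cd74 and H2-Aa. That run therefore does not cover falls to a few or 0 reads. Alternatives were DESeq2 1.42.0, RLE size factors, 2 other filters, the compared groups alone, a replicate block, a log2 fold change of at least 1, TPM, raw-count ratios, Pearson's r and leaving out each library. Leaving out libraries for the ratios was added after seeing the data. Tables and figures were made with Python 3.11.15.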

Additional observations from a re-analysis of the deposited data

How the results depend on the processing

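Against Sub-ASCs, the 7 genes were called in both comparisons under all 16 alternatives, and all 224 single-gene values kept their direction and call. PVASCs against Ab-ASCs was less stable. The count of 2 members became 1 with only the compared groups in the fit and 0 with a log2 fold change of at least 1, and ranged from 1 to 4 over left-out libraries (1 without Ab-ASC replicate 1 or PVASC replicate 3, 4 without Ab-ASC replicate 3). DESeq2 gave 3. H2-Eb1, at -0.55, ranged from -0.85 to 0.12 over left-out libraries, the last without Ab-ASC replicate 2. Of the genes of the 6 pathway lists, with 2, 7, 10, 9, 7 and 9 tested genes, 26 were called in this comparison and 6 with the log2 cutoff. Without the cutoff, 56.9% of all genes tested were called in either direction, so the 26 calls are near the general share. Away from the threshold, Creb1 in PVASCs ranged from -0.12 to 0.011 and Cd40 in Ab-ASCs from -0.16 to 0.28 against Sub-ASCs, with signs reversed without Sub-ASC replicate 2 for both and without Ab-ASC replicate 1 for Cd40. The summed member levels were 195, 23.9 and 21.7 as TPM in Sub-ASCs, Ab-ASCs and PVASCs, a change of unit. The fold of the H2-Ab1 to H2-DMb1 ratio between PVASCs and Ab-ASCs, 0.961, ranged from 0.810 to 1.14 over left-out libraries, and was 1.07 without PVASC replicate 2 and 1.14 without Ab-ASC replicate 2. Raw-count ratios changed no fold, since lengths cancel. By Pearson's r in place of the distance, 1 and 0 of the 3 nearest genes of Ciita and Cd74 were shared. DESeq2's size factors shifted the median log2 difference of all genes by at most 0.0229. The cause of these changes was not tested.

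Deviations of same-numbered libraries correlated between -0.05 and 0.10. These values show no pairing by number but cannot exclude it, since other spread between libraries may hide it. With the replicate block, 7, 7 and 2 members were called in PVASCs and Ab-ASCs against Sub-ASCs and in PVASCs against Ab-ASCs, and 40, 42 and 26 genes of the pathway lists, the same numbers as without it. Over all genes the block gave 11458, 12302 and 9183 calls in place of 11628, 12442 and 9396. Depth limits what can be said of Ciita, Cd74, H2-Aa and H2-Eb1 outside Sub-ASCs, where single libraries held 0 to 12 reads.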
